A study of Mus musculus with 6 samples.

Results

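The 34 genes described here are markers of endothelium, the cell layer that lines blood and lymph vessels. They were taken from a fixed list of symbols, matched to 27179 Entrez Gene entries of a whole-transcriptome RNA table of sorted nephron progenitors, and all 34 were found, low genes kept. Mutant libraries came from E16.5 mouse kidneys that carried the Six2TGC transgene together with floxed alleles of the miR-17~92 microRNA cluster, written Six2TGC;miR-17~92fl/fl, and control libraries from E16.5 kidneys with Six2TGC and no floxed allele named. Each genotype had 3 libraries, and each library pooled progenitors of 4 embryos, sorted for Six2-positive cells. Both genotypes carried Six2TGC, which expresses Cre recombinase in Six2-positive cells, a lineage that forms nephron epithelium. The labels give no strain background, so an effect of the deletion and one of linked or background alleles cannot be told apart.

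Endothelial identity rests on a few linked systems. Vascular endothelial growth factors (VEGFs) and angiopoietins, made mainly by neighbouring cells, act on receptor tyrosine kinases of the endothelial surface, and ETS and SOX transcription factors drive the genes of adhesion, permeability and vessel tone. In the embryonic kidney nephron progenitors lie close to growing capillaries and to interstitial cells, and a sort for a progenitor reporter can carry some of both.

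The list was mostly low in level, with 1 gene far above the rest, and no gene of it passed the test between genotypes. Ramp2 averaged 69.0 RPKM (reads normalized for gene length and library depth) over the 6 libraries, the other 33 genes averaged between 0.0335 and 2.46 RPKM, and 23 of the 34 lay under 0.5 RPKM. Of the 11 genes whose mean reached 0.5 RPKM, 0 differed between genotypes in limma at an adjusted p of 0.05, where 3.13% of all 13463 tested genes did. None rose and none fell, against 1.32% of all tested genes higher and 1.81% lower in mutants. None of these 11 had an unadjusted p under 0.05 in limma, against 19.6% of all tested genes, and 0 passed with voom on recovered reads, against 5.1% of all genes. Their median log2 fold change was 0.17, and that of all tested genes was -0.12.

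Depth, worked out from the RPKM grid, ran from 27602025 to 30264067 reads in mutant libraries and from 28117790 to 36134381 in control libraries. Mir17, the first microRNA of the targeted cluster, was listed at 0.787, 0 and 0 RPKM in mutants, against 12.5, 8.57 and 6.77 RPKM in controls. Six2, the factor that marks the sorted cells, was at 57.0 to 77.0 RPKM in mutants and at 69.9 to 104 RPKM in controls. Of 12 nephron progenitor genes, all tested, Tmem100 rose and Meox1 and Capn6 fell in limma, against 3.13% of all tested genes called. Of the 12, 8 had an unadjusted p under 0.05 in limma, against 19.6% of all tested genes. Their summed level was 702, 654 and 757 RPKM in mutants, against 856, 843 and 909 RPKM in controls, without overlap. Mitochondrial ribosomal RNA took 32.2% to 38.2% of reads in mutants and 27.0% to 30.4% in controls. The limma calls over all genes split into 178 higher and 244 lower in mutants, and into 282 higher and 154 lower with median-of-ratios scaling, which moved the median gene to -0.01.

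The microRNAs that the deletion removes are shown because their seeds define which messenger RNAs, endothelial ones included, they could pair with. Cre is expressed in Six2-positive cells, and whether any endothelial cells carried along in the sort lost the cluster was not tested. The 6 main mature forms, from RefSeq on GRCm38.p6, lie on chromosome 14 between chr14:115043684-115043706 (miR-17-5p) and chr14:115044476-115044496 (miR-92a-3p), plus strand. Capitals mark the seed, bases 2 to 8, and the 6 fall into 4 seed groups.
miR-17-5p: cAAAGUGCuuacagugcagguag
miR-20a-5p: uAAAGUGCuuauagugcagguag
miR-18a-5p: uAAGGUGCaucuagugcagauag
miR-19a-3p: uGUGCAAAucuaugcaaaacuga
miR-19b-3p: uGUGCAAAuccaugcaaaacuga
miR-92a-3p: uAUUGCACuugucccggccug

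For each gene the longest 3′ UTR in GENCODE M21 (GRCm38) was searched, on the transcript strand only, for the letters that pair with each seed. These were GCACTTT for miR-17-5p and miR-20a-5p, GCACCTT for miR-18a-5p, TTTGCAC for miR-19a-3p and miR-19b-3p, and GTGCAAT for miR-92a-3p. A match to any of the 4 seeds was present in 10 of the 34 endothelial genes (29.4%), against 34.6% of 11573 tested genes with a 3′ UTR; the median 3′ UTR was 1360 bases in the endothelial genes and 1231 bases in the tested genes. By seed, the match of miR-17-5p and miR-20a-5p was in 8.82% of endothelial genes against 15% of tested genes, that of miR-18a-5p in 17.6% against 9.38%, that of miR-19a-3p and miR-19b-3p in 5.88% against 13.9%, and that of miR-92a-3p in 11.8% against 7.94%. The 34 genes include 23 with a mean under 0.5 RPKM, a level that all the tested genes reached. Among the 11 members that reached it, 2 had a match to any seed. All these shares are descriptions of letters in a window, and no test was made of them.

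S1pr1, a receptor for sphingosine 1-phosphate that steadies endothelial junctions, was the 1 member with matches to all 4 seeds, a property of 0.294% of tested genes. Its 5 matches lie within a 3′ UTR of 1362 bases on the minus strand of chromosome 3. Windows around 4 of them are shown, with the match in capitals, at chr3:115711509-115711537 (miR-19), chr3:115710884-115710912 (miR-18a), chr3:115710540-115710568 (miR-92a) and chr3:115710470-115710498 (miR-19, followed by the A of an 8-base site). The miR-18a window also holds the miR-17 match, left in lower case.
S1pr1 miR-19 site: ggagctttgatTTTGCACtgagccaaagg
S1pr1 miR-18a site: taacccctacaGCACCTTtggcactttta
S1pr1 miR-92a site: gtgttcagtgaGTGCAATtaagccaagaa
S1pr1 miR-19 8-base site: ttgtggatcatTTTGCACatagctttatc

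Prox1, the master factor of lymphatic endothelium, was the other member past the expression filter with a match. It had 1 match for miR-19 at chr1:190120898-190120926 and 1 for miR-92a at chr1:190120136-190120164, both on the minus strand.
Prox1 miR-19 site: ctctccacagcTTTGCACtgaggtggttg
Prox1 miR-92a site: tttcataccatGTGCAATgtgtgtgcaga

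S1pr1 was at 0.862, 0.511 and 1.12 RPKM in mutants, against 0.560, 0.621 and 0.458 RPKM in controls. Of the mutant libraries 2 lay above all controls and 1 lay within their range. The log2 fold change was 0.32 (95% interval -0.18 to 0.83, limma adjusted p 0.438). Prox1 was at 1.30, 1.44 and 1.74 RPKM in mutants, against 1.02, 1.23 and 1.6 RPKM in controls, and these ranges overlapped (log2 fold change 0.17, 95% interval -0.26 to 0.60, limma adjusted p 0.642).

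**Figure D1:**
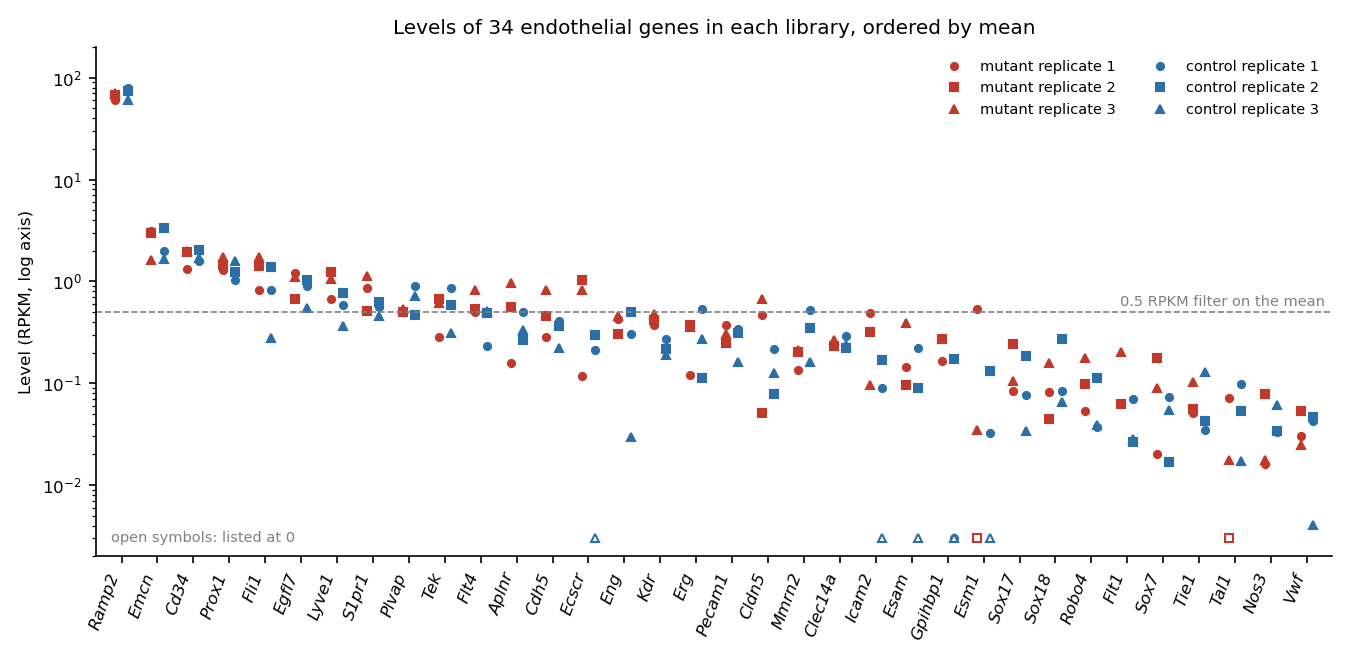
Level of each of the 34 endothelial genes in each library, in RPKM on a log axis, genes ordered by their mean, mutant libraries in red to the left of control libraries in blue. Ramp2 stands at 60.5 to 79.8 RPKM, and 23 genes have a mean under the dashed line at 0.5 RPKM; open symbols are genes listed at 0.

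Ramp2 (Entrez Gene 54409; chr11:101246334-101248250, mm10) encodes a small membrane protein that pairs with the receptor Calcrl to form the receptor of adrenomedullin, a peptide that vessels need to form a tight lining. It was at 61.0, 67.5 and 71.2 RPKM in mutants, against 79.8, 74.2 and 60.5 RPKM in controls, with overlapping ranges. Its mean ranked 488 among all 27179 entries, and it made up 81.8% of the summed level of the list, at a ratio of 28.1 to the next gene. The means were 66.6 ± 5.14 RPKM in mutants and 71.5 ± 9.95 RPKM in controls (SD, n = 3 each), with a log2 fold change of -0.10 (standard error 0.14, 95% interval -0.40 to 0.21, limma adjusted p 0.712). Its sign turned under median-of-ratios scaling, to a log2 fold change of 0.03.

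The level of Ramp2 was not matched by the other genes of the list. In the RefSeq annotation the gene does not overlap its neighbour Vps25, which starts at position 101252326 on the same chromosome. Longer GENCODE transcripts of Ramp2 do, and of its 3301 exonic bases in GENCODE 33.4% are shared with Vps25, which averaged 24.2 RPKM. The length worked out for the Ramp2 entry from the RPKM grid was 872 bases. A share of Vps25 reads in the Ramp2 entry was not tested.

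The partner Calcrl, from a second list of endothelial genes, was at 8.94, 9.00 and 11.3 RPKM in mutants, against 9.19, 8.31 and 9.72 RPKM in controls. Calcrl and Ramp2 thus both stood above 8 RPKM in every library. The related partners Ramp1 and Ramp3 and the ligand Adm, named after their values were seen, were low. Ramp1 averaged 0.0134 RPKM, and Ramp3 had 4, 0 and 2 reads in mutants and 2, 32 and 11 in controls. Adm was at 0.502, 0.573 and 0.577 RPKM in mutants, against 0.0491, 0.481 and 0.0773 RPKM in controls, without overlap but under the filter (exact two-sided permutation p = 0.1).

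Among the receptor kinases, Kdr was the only member whose mutant and control libraries did not overlap. Kdr (Entrez Gene 16542; chr5:75932827-75979072), the main VEGF receptor of blood endothelium, was at 0.369, 0.416 and 0.478 RPKM in mutants, against 0.274, 0.218 and 0.189 RPKM in controls. Every mutant library lay above every control library. Over each genotype 196 reads stood against 116, a ratio of read rates of 1.85 with a 95% counting interval of 1.46 to 2.35. Such intervals ignore the spread between libraries. They also left out equal rates in low members whose groups overlapped, such as Cdh5 (1.20 to 1.93), Ecscr (2.07 to 6.23) and Mmrn2 (0.38 to 0.71). In others, such as Pecam1 (0.83 to 1.54), they did not. Kdr lies under the filter, and an exact two-sided permutation test gave p = 0.1, the smallest that 3 against 3 libraries allow.

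Separated groups were common among all genes of these libraries. The groups did not overlap in 1 of 34 endothelial genes, with mutants higher, against 7.25% of all 23229 entries with a read that had mutants higher. In either direction the share was 19% of all entries and 10.7% of those under the filter. With the filter removed, limma gave Kdr an unadjusted p of 0.0159 and an adjusted p of 0.238, and Gpihbp1 0.0163 and 0.24. These were the 2 of 34 members with an unadjusted p under 0.05, against 14.3% of all entries fitted, and 0 of 34 passed the adjusted threshold, against 0.616%.

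Of the other receptor kinases, Flt4 and Tek averaged 0.515 and 0.557 RPKM, just past the filter, and Flt1 and Tie1 lay below Kdr. Flt1, a VEGF receptor that also acts as a decoy, was at 0.0631, 0.0630 and 0.202 RPKM in mutants, against 0.0702, 0.0264 and 0.0283 RPKM in controls, and 35 of its 58 mutant reads came from mutant replicate 3. Flt4, the VEGF-C receptor of lymphatic endothelium, was at 0.498, 0.536 and 0.819 RPKM in mutants, against 0.232, 0.493 and 0.512 RPKM in controls (log2 fold change 0.30, 95% interval -0.21 to 0.80, limma adjusted p 0.479). For both genes the ranges overlapped, for Flt4 by a narrow margin.

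Tek, the angiopoietin receptor, was at 0.284, 0.673 and 0.615 RPKM in mutants, against 0.867, 0.589 and 0.313 RPKM in controls. Each genotype had 1 low library, and the log2 fold change was -0.08 (95% interval -0.65 to 0.49). Its orphan relative Tie1 averaged 0.0698 RPKM in mutants and 0.0687 RPKM in controls.

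Most listed ligands of these receptors had higher levels per length than the receptors, but Angpt4, at a mean of 0.285 RPKM, lay below Tek. Vegfa was at 27.1, 21.5 and 23.1 RPKM in mutants, against 28.7, 23.5 and 31.5 RPKM in controls. Vegfc, the ligand of Flt4, was at 20, 13.8 and 18 RPKM in mutants, against 11.8, 13.1 and 15.1 RPKM in controls. The angiopoietins Angpt1 and Angpt2 averaged 3.28 ± 0.1 and 4.19 ± 0.659 RPKM in mutants and 2.90 ± 0.3 and 3.90 ± 0.507 RPKM in controls (SD, n = 3 each). Slit2, the guidance ligand of Robo receptors, was the highest ligand, at a mean of 57.2 RPKM. For Vegfa, Vegfc, Angpt1, Angpt2 and Slit2 the mutant and control ranges overlapped. Vegfc had a log2 fold change of 0.35 (limma unadjusted p 0.0481, limma adjusted p 0.251).

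Of 18 listed ligands, 12 were tested and 0 passed in limma, 6 had an unadjusted p under 0.05 (19.6% of all tested genes) and 0 passed with voom (5.1% of all). The median log2 fold change of the 12 was 0.17, against -0.12 for all tested genes, and 9 of the 12 lay above that median. The chemokine Cxcl12, named after its values were seen, was at 12.5, 10.9 and 12.4 RPKM in mutants, against 9.08, 10.1 and 8.23 RPKM in controls. Its log2 fold change was 0.37 (limma adjusted p 0.18). It passed after quantile normalization (limma adjusted p 0.042) and after scaling by median of ratios (limma adjusted p 0.0412). The placental growth factor gene Pgf, also named after its values were seen, averaged 3.21 ± 0.226 RPKM in mutants and 4.69 ± 0.721 RPKM in controls (SD, n = 3 each; limma adjusted p 0.144).

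**Figure D2:**
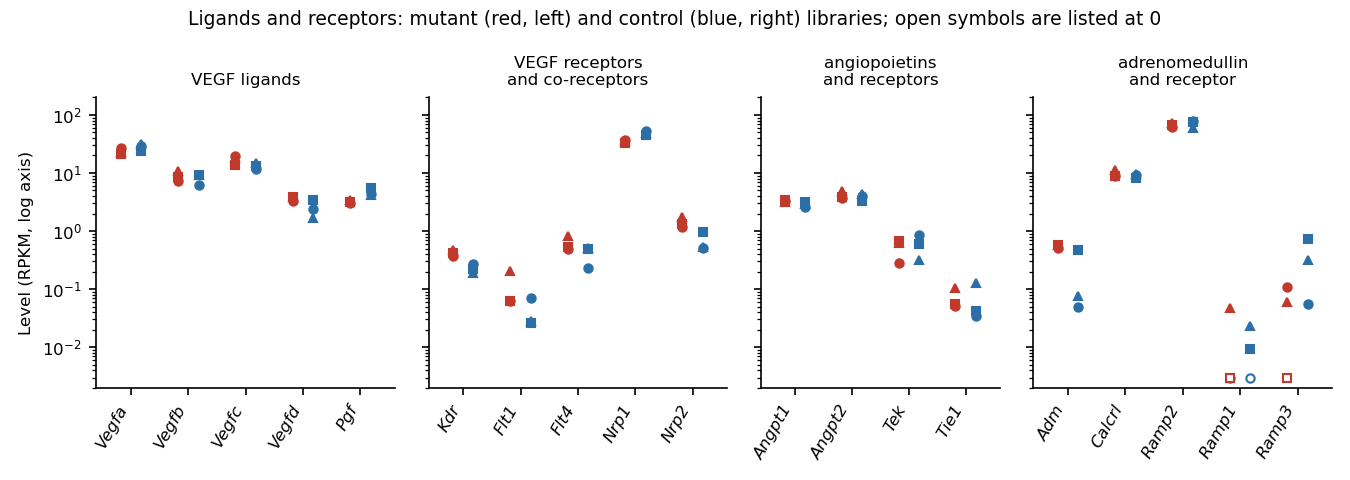
Levels in RPKM on a log axis of VEGF and angiopoietin ligands, their receptors, and adrenomedullin with its receptor parts, mutant libraries in red to the left of control libraries in blue, with circle, square and triangle for replicates 1, 2 and 3. Vegfa lies above 20 RPKM in all 6 libraries, and Kdr lies under 0.5 RPKM in all 6.

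VEGF co-receptors and ETS factors outside the list gave mixed values. Nrp1 (Entrez Gene 18186), a co-receptor of VEGF and semaphorins that many mesenchymal cells also make, was at 36.7, 32.5 and 35.5 RPKM in mutants, against 53.1, 45.3 and 49.6 RPKM in controls, with no overlap. Its log2 fold change was -0.49 (95% interval -0.76 to -0.22), short of the threshold in limma (adjusted p 0.0575). It passed with voom (adjusted p 0.022), without control replicate 2 (limma adjusted p 0.0351) and without control replicate 3 (limma adjusted p 0.0369). After median-of-ratios scaling it did not pass (limma adjusted p 0.127).

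Its relative Nrp2, named after its values were seen, lay the other way. Nrp2 was at 1.16, 1.34 and 1.75 RPKM in mutants, against 0.514, 0.971 and 0.521 RPKM in controls (log2 fold change 0.73, limma adjusted p 0.113, voom adjusted p 0.0141), and without control replicate 2 it passed (limma adjusted p 0.045). The ETS genes Ets1 and Elk3, named for the same reason, averaged 10 ± 0.375 and 11.4 ± 0.277 RPKM in mutants and 15.3 ± 2.31 and 15.9 ± 1.21 RPKM in controls (SD, n = 3 each). Their limma adjusted p-values were 0.0548 and 0.0866, and both passed with voom (adjusted p 0.0171 and 0.0454) and without control replicate 3 (limma adjusted p 0.00904 and 0.0433). Ets2, the most abundant ETS gene among these partners, averaged 29.4 ± 3.34 RPKM in mutants and 26.0 ± 3.51 RPKM in controls (SD, n = 3 each; log2 fold change 0.18, limma adjusted p 0.494), with overlapping ranges. In that list of 17 partners 13 were tested, 0 passed in limma, 4 had an unadjusted p under 0.05 (19.6% of all tested genes) and 4 passed with voom (5.1% of all). Beside Nrp1, the most abundant genes of that list were Nr2f2 and Hif1a. Hif1a and Nr2f2 averaged 44.4 ± 5.83 and 99.8 ± 11 RPKM in mutants and 46.1 ± 1.44 and 118 ± 4.69 RPKM in controls (SD, n = 3 each).

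**Figure D3:**
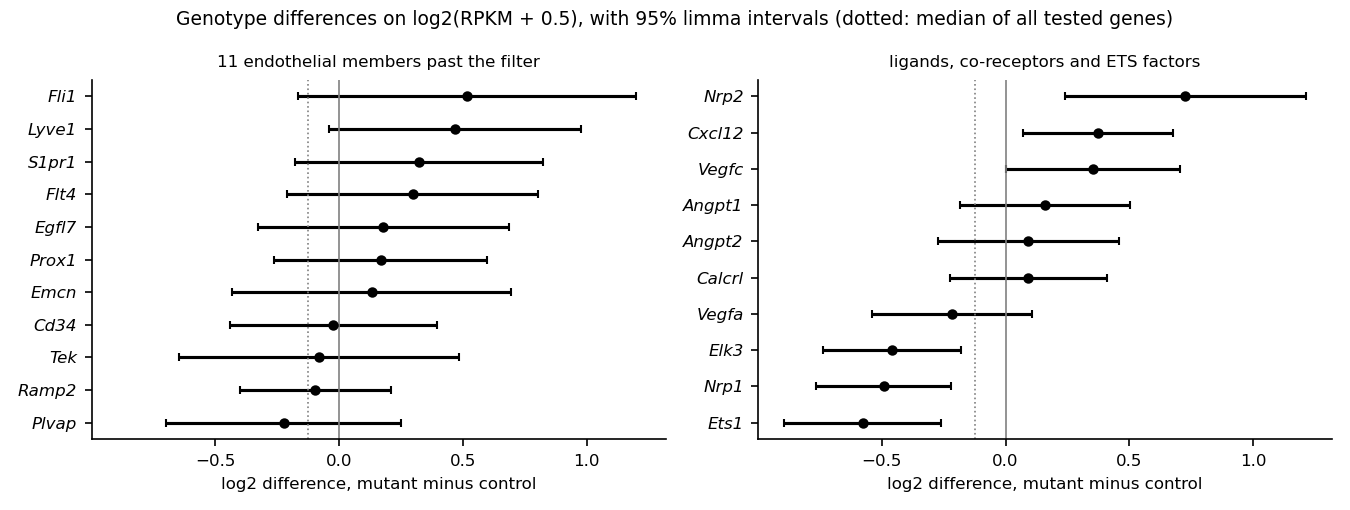
Differences between mutant and control libraries on the log2(RPKM + 0.5) scale with 95% limma intervals, for the 11 endothelial genes past the filter and for 10 ligands, co-receptors and ETS genes, some of them chosen after their values were seen. All 11 intervals on the left include 0. On the right those of Nrp1, Ets1 and Elk3 lie under 0, and those of Nrp2, Cxcl12 and Vegfc lie above 0.

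The endothelial ETS members were lower than Ets1 and Elk3. Fli1, an ETS factor of endothelium that blood cells also express, was at 0.813, 1.41 and 1.74 RPKM in mutants, against 0.813, 1.38 and 0.276 RPKM in controls. Its log2 fold change of 0.52 was the largest among the tested members (95% interval -0.16 to 1.20, limma adjusted p 0.373), and without control replicate 3 it was 0.18. Erg, its close relative, was at 0.119, 0.374 and 0.360 RPKM in mutants, against 0.536, 0.112 and 0.273 RPKM in controls, so that neither genotype was uniformly higher.

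The SOXF factors Sox7, Sox17 and Sox18, which act in arterial and lymphatic specification, averaged 0.0951, 0.143 and 0.0942 RPKM in mutants and 0.0480, 0.0985 and 0.141 RPKM in controls. Tal1, a factor of blood and endothelial precursors, had 11 reads over the mutants and 22 over the controls (95% counting interval of the rate ratio 0.24 to 1.18). These 4 genes had 0 to 21 reads a library, and for each of them the mutant and control ranges overlapped.

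Adhesion and surface genes formed the largest group. Emcn, the sialomucin endomucin of veins and capillaries, was at 3.14, 2.98 and 1.64 RPKM in mutants, against 2.00, 3.33 and 1.66 RPKM in controls, and Cd34, a sialomucin shared with stromal and blood precursors, averaged 1.75 ± 0.360 RPKM in mutants and 1.77 ± 0.227 RPKM in controls (SD, n = 3 each). Both had log2 fold changes near 0, at 0.13 and -0.02, with 95% limma intervals of -0.43 to 0.69 and -0.44 to 0.39. Plvap, which forms the diaphragms of fenestrated capillaries, was at 0.508, 0.5 and 0.539 RPKM in mutants, against 0.909, 0.467 and 0.723 RPKM in controls (log2 fold change -0.22, limma adjusted p 0.573).

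The defining junction genes were low in both genotypes. Pecam1, an adhesion molecule of all endothelium, was at 0.370, 0.250 and 0.307 RPKM in mutants, against 0.339, 0.310 and 0.161 RPKM in controls. Cdh5, the cadherin of endothelial junctions, was at 0.282, 0.460 and 0.818 RPKM in mutants, against 0.409, 0.368 and 0.223 RPKM in controls. Neither separated the genotypes (p of 0.7 for Pecam1 and 0.4 for Cdh5 in the exact permutation test). Clec14a, a lectin of vessel sprouts, varied little, at 0.230 to 0.263 RPKM in mutants and 0.219 to 0.291 RPKM in controls. Robo4, a receptor that steadies vessels, averaged 0.109 RPKM in mutants and 0.0626 RPKM in controls.

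Esam, Icam2 and Ecscr were listed at 0 in control replicate 3. Cldn5, a tight junction claudin, had 20, 2 and 26 reads in mutants and 9, 4 and 5 in controls. Esam, an adhesion molecule, had 8, 5 and 20 reads in mutants and 12, 6 and 0 in controls. Icam2, an adhesion molecule also found on leukocytes and platelets, had 17, 10 and 3 reads in mutants and 3, 7 and 0 in controls. For Cldn5, Esam and Icam2 the range of the mutant libraries was wider than the step between the genotype means. Ecscr, a regulator of endothelial migration, had 4, 32 and 25 reads in mutants and 7, 12 and 0 in controls; the count of 0 allows up to 0.096 RPKM.

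Genes of signalling and transport gave the same picture. Eng, a co-receptor of TGF-beta and BMP ligands, was at 0.426, 0.302 and 0.456 RPKM in mutants, against 0.304, 0.496 and 0.0299 RPKM in controls, where the low value is 3 reads. Aplnr, the apelin receptor, was at 0.158, 0.555 and 0.956 RPKM in mutants, against 0.495, 0.264 and 0.329 RPKM in controls. Gpihbp1, which carries lipoprotein lipase to the capillary surface, had 4, 6 and 6 reads in mutants and 0, 5 and 0 in controls. In all 3 the ranges overlapped, in Gpihbp1 by 1 control library. Nos3, the endothelial nitric oxide synthase, had 13 reads over the mutants and 16 over the controls, and it shares 32.3% of its exonic bases with Atg9b and an antisense gene, so that its reads cannot be told apart from theirs without strand.

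The secreted members ranged widely. Egfl7, a matrix protein that guides sprouting and hosts the endothelial microRNA miR-126, was at 1.22, 0.664 and 1.11 RPKM in mutants, against 0.897, 1.02 and 0.547 RPKM in controls (log2 fold change 0.18, limma adjusted p 0.674). The Mir126a entry itself had 0 reads over the mutants and 1 over the controls. Vwf, the clotting factor of mature endothelium and platelets, was the lowest member, with 27 reads over each genotype.

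Mmrn2 and Esm1 each leaned on few libraries. Mmrn2, a matrix glycoprotein of vessels, was at 0.134, 0.201 and 0.212 RPKM in mutants, against 0.526, 0.352 and 0.163 RPKM in controls. The means ran lower in mutants, while control replicate 3 lay among the mutants. Esm1, a proteoglycan of sprouting and glomerular capillaries, had 34, 0 and 2 reads in mutants and 2, 10 and 0 in controls. The library with the 34 reads, mutant replicate 1, also had the highest level of Podxl, a gene of podocytes and endothelium (2.86 RPKM, against 0.412 to 0.706 RPKM in the other libraries). The summed level of 11 podocyte genes, Podxl among them, was not highest in that library. It was 212, 190 and 208 RPKM in mutants, against 240, 270 and 181 RPKM in controls. The part of RNA from podocytes in the Esm1 value was not tested.

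Lyve1, a hyaluronan receptor of lymphatic endothelium that tissue macrophages also carry, had the lowest p of the tested members. It was at 0.672, 1.23 and 1.06 RPKM in mutants, against 0.586, 0.764 and 0.368 RPKM in controls, with 2 mutant libraries above all controls. Its log2 fold change was 0.47 (95% interval -0.04 to 0.98, unadjusted p 0.0682, limma adjusted p 0.29). It did not pass, and its ranges overlapped. The summed level of 14 macrophage and leukocyte genes was 19.5, 17.9 and 17.9 RPKM in mutants, against 10.8, 7.41 and 6.22 RPKM in controls, without overlap. Of the 6 tested, 3 rose in limma (Fcer1g, Tyrobp and Ctss) and 2 passed with voom, against 1.32% of all tested genes higher in limma and 5.1% called by voom. Of their defining genes, Ptprc was at 0.179 to 0.228 RPKM in mutants and 0.0251 to 0.142 RPKM in controls. No gene of that list was at 0 in all 6 libraries, and its part in the Lyve1 level was not tested.

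Across the list the mutant mean was the higher in 24 of 34 genes and the lower in 10, against 44.43% higher among all entries with a read. The sum of the 33 genes other than Ramp2 was 15.1, 17.2 and 19.4 RPKM in mutants, against 14, 16 and 10.3 RPKM in controls. Control replicate 3 was the lowest library of all, and the mutant libraries otherwise overlapped the controls. The means were 17.2 ± 2.13 RPKM in mutants and 13.4 ± 2.88 RPKM in controls (SD, n = 3 each), a difference of 3.82 RPKM that was 2.27 RPKM without control replicate 3, where the mutant mean was the higher in 21 genes. In bulk RNA, a difference in the number of endothelial cells and one in RNA per cell cannot be told apart.

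That library held the lowest value of 16 of the 34 genes, ties at 0 included, and the highest of 1, while mutant replicate 3 held the highest of 12 and the lowest of 1. Each of the other libraries held the lowest value of 1 to 5 of the 34 genes. Among all entries with a read, 31.2% had their lowest value in control replicate 3, ties included, against 21.87% to 40.78% in the other libraries. Among those under the filter, where 23 of the 34 genes lie, the share was 50.34%, against 37.92% to 49.64% in the other libraries. Ties at 0 raise these shares in every library. The summed level of 16 interstitium genes was 253, 363 and 349 RPKM in mutants, against 262, 333 and 206 RPKM in controls, so that control replicate 3 was again the lowest. The summed level of 10 mural genes, which mark the pericytes and smooth muscle around vessels, was 41.1, 51.3 and 66.3 RPKM in mutants, against 52.1, 74.3 and 39.2 RPKM in controls. All 16 interstitium genes and 9 of 10 mural genes were past the filter, and none of either list was at 0 in all libraries. Of the 9 mural genes tested only Des passed in limma, lower in mutants, against 1.81% of all tested genes lower (log2 fold change -0.94, limma adjusted p 0.0269). The rest of that list did not share its direction as a whole. The median log2 fold change of the 9 was 0.22, against -0.12 for all tested genes, and 7 of the 9 lay above that median. The part of these cells in the endothelial levels was not tested.

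**Figure D4:**
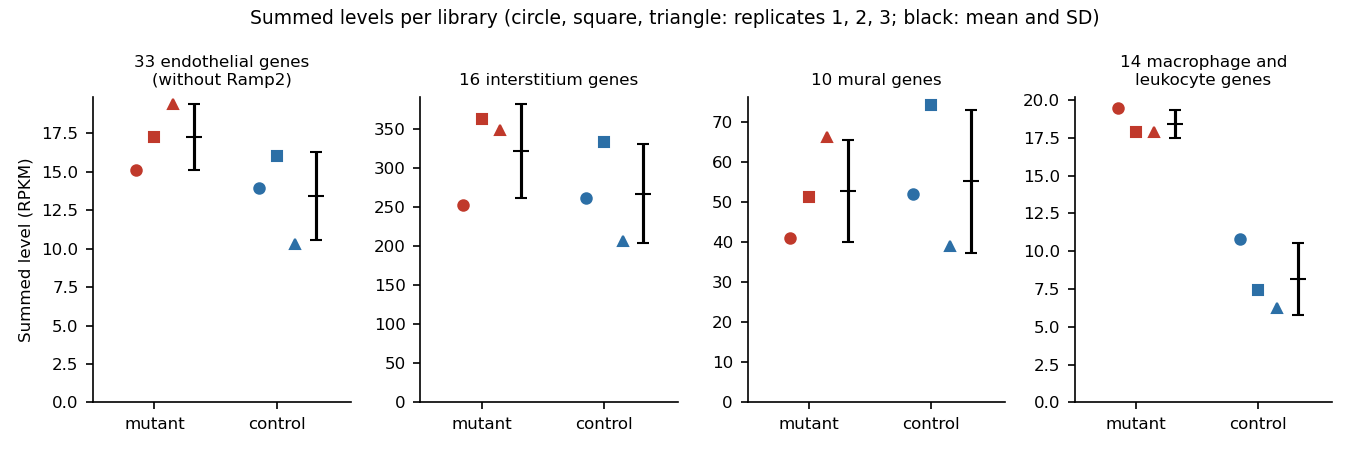
Summed level in RPKM per library of the 33 endothelial genes other than Ramp2 and of interstitium, mural and macrophage genes, mutant libraries left of control libraries, with the mean and SD in black. The endothelial sum is 15.1 to 19.4 RPKM in mutants and 10.3 to 16 RPKM in controls and overlaps, and the macrophage sum does not.

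A further list of 26 endothelial genes, not among the 34, was also mostly low. Of these 16 lay under 0.5 RPKM and 10 were tested, 0 passed in limma, 1 had an unadjusted p under 0.05 (19.6% of all tested genes) and 1 passed with voom (5.1% of all), and the median log2 fold change was -0.05. The groups did not overlap in 4 of the 26 (Ptprb, Cd93, Bcl6b and Rasgrp3, named after their values were seen), all with mutants higher, against 7.25% of all entries with a read. Its most abundant genes after Calcrl were Ephb4, the ephrin receptor of veins, and Lmo2, a cofactor of Tal1. Ephb4 averaged 6.36 ± 1.46 RPKM in mutants and 8.02 ± 0.494 RPKM in controls, and Lmo2 1.46 ± 0.243 RPKM in mutants and 2.11 ± 0.427 RPKM in controls (SD, n = 3 each). The gene that voom called was Cd93, a lectin of endothelium and myeloid cells. Cd93 was at 0.747, 0.759 and 0.731 RPKM in mutants, against 0.312, 0.313 and 0.209 RPKM in controls, with no overlap (log2 fold change 0.68, limma adjusted p 0.107, voom adjusted p 0.00496). A list of 8 platelet genes summed to 1.72 to 1.89 RPKM in mutants and 1.42 to 1.97 RPKM in controls, with Gp9 and Treml1 at 0 in all 6 libraries.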

How the data were processed

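The authors deposited 1 table of RPKM values, already normalized for gene length and library depth, with 1 column for each of 6 libraries. Per the submitters' processing notes the build was mm10, and the tools listed there are limma and FastQC. The columns carry the word subread, per the file headers. For the annotation and the strand setting, the sources used here give nothing. Symbols were matched by Entrez Gene ID for 25275 of 27179 entries and for all 34 members. Whole reads (within 0.1 of a read) were recovered from the RPKM grid for all 23229 entries above 0, and a read may be a read pair.

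The log2(RPKM + 0.5) values, computed from the deposited RPKM, were fitted with limma (version 3.58.1, R version 4.3.3) over genes whose mean reached 0.5 RPKM, mutant minus control, with a variance trend and Benjamini-Hochberg adjustment, two-sided; fold changes on this scale understate low genes. Members under the filter have exact permutation tests and read ratios with exact 95% binomial intervals; these and floors of 3 reads cover counting error only. Alternatives were other pseudocounts, filters and scalings, voom on recovered reads, a replicate block and leaving out each library. The fit was tested on simulated data. The rule for named genes took all members, genes past the threshold in other lists and otherwise their 3 most abundant. Outside it, Angpt1, Angpt2, Angpt4, Ets2, Ptprc and Podxl, and those marked as such in the text, were chosen after their values were seen, and lists that no result turns on are not named. Members and lists were chosen with earlier results of these data known. Replicates are separate pools, and p-values measure the spread between them.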

Additional observations from a re-analysis of the deposited data

How the results depend on the processing

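No endothelial member passed under any of the 16 alternatives, and the lowest adjusted p of a member in limma or voom was 0.151 (Fli1, without control replicate 2). The number of all genes called was 143 with no filter, 686 with voom and 151 to 1101 when 1 library was left out, against 422; why was not tested, other than that fewer samples enter the last. The partner list had 4 calls with voom and 0 to 3 with 1 library left out, the ligand list 1 after quantile normalization and 1 after median-of-ratios scaling (Cxcl12 in both), and the further endothelial list 1 with voom and 1 without the variance trend, all against 0. Low members whose groups did not overlap numbered 2 with median-of-ratios scaling and 2 with depth taken without mitochondrial ribosomal RNA, and 2 to 6 with 1 library left out, against 1. The share over all entries was not worked out for these settings. Smaller groups separate more easily for any gene, so the counts with 1 library left out cannot be read as a result about the members. Signs turned only for differences close to 0: under median-of-ratios scaling, quantile normalization and depth without the ribosomal RNA, in that order, the log2 fold change was 0.029, 0.11 and 0.024 for Ramp2, 0.076, 0.012 and 0.077 for Cd34 and 0.063, 0.12 and 0.058 for Hif1a. With 1 library left out it ran from -0.28 to 0.10 for Tek, -0.043 to 0.38 for Emcn, -0.10 to 0.12 for Cd34, -0.013 to 0.15 for Calcrl and -0.17 to 0.00069 for Hif1a. Under the same scalings the median over tested members was 0.26, 0.18 and 0.31, and that of all genes was -0.01, -0.02 and -0.01. With the replicate number as a block 393 genes and 0 members were called. Same-numbered libraries deviated together with correlations of 0.053, 0.157 and 0.153, each the highest for its number, a hint from the data only, and the labels state no pairing. Low read numbers limit the 7 members under 0.1 RPKM. They also limit short genes above that level, such as Gpihbp1 with 16 reads over the mutants and 5 over the controls.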
